A study of Homo sapiens with 12 samples.

Results

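The 3 control libraries of 143B cells, labelled NC, describe the basal transcriptome of a human osteosarcoma line. They are 3 of the 12 RNA-seq libraries of a study in 4 groups (NC, BSG, M-BSG and M-BSG-Hot), chosen by their titles, and every one of the 24180 gene symbols in the deposited tables was read in each of them. Per its title, the study concerns borosilicate glass, mild heating by magnetism and osteosarcoma. The NC cells are labelled as the control group and as wild type, and their medium was DMEM, fetal bovine serum and antibiotics. Total RNA was made into mRNA sequencing libraries with a SMARTER kit. The labels repeat the same treatment note, on a magnetic glass under an alternating field, for each library of the series, these 3 included, so the controls are untreated only as far as their title says. Nothing in the labels says whether the 3 libraries came from separate cultures, so each SD below measures the spread between 3 libraries of one line, which may be technical.

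Osteosarcoma is a bone tumour of cells related to the osteoblast, the cell that lays down type I collagen and mineralises it under the transcription factors RUNX2 and SP7 (osterix). The 143B line was derived from the HOS osteosarcoma line by transformation with a murine sarcoma virus and was selected for lack of thymidine kinase activity. It is widely used because it forms metastatic tumours in mice. The levels below are FPKM, reads scaled to gene length in kilobases and to the total counted reads of the library. Genes of different length can then be set side by side within a library, as far as the lengths used are right. Those lengths were not checked against the transcripts these cells make, and some are long, such as 20396 bases for NR3C1. Without division by length the order turned in 4 of 64 pairs of related genes. Values with ± are mean ± SD (n = 3 libraries). A gene is called present at 1 FPKM or more in all 3 libraries, not detected at 0 counts in all 3, and in between otherwise.

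The libraries held 34434993, 36790336 and 36680546 counts, 107905875 in all. A gene at 0 in all 3 may therefore still lie at up to 0.0278 CPM (counts scaled to the library total), the level that 3 counts over the 3 libraries together would give, counting error only. Every symbol in the tables had at least 1 count somewhere in the 12 libraries, so a gene that is not listed has no value here. Genes whose exons overlap another annotated gene, or that have near-identical copies, are uncertain because the sources used here give neither the counting rule nor its use of strand. In GENCODE 29, 26 of the 1149 genes looked up had 40% or more of their exon bases inside exons of another gene. Those described below are EEF1G, CD68, FTH1, MIF, ALDOA, CTSD, ITGB3, TYMS, ASNS, CDK4, BCL2L1, DCTPP1, ADIPOQ, HOXA4 and HOXD4. HSPA1A and HSPA1B, the HLA class I genes, the actins, and the ribosomal protein and mitochondrial genes with processed or nuclear copies are uncertain in the same way, and the part of such reads in their levels was not tested.

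The 3 libraries differed little, and NC 1 stood slightly apart from the other pair. Over the 5033 genes with a mean of 10 FPKM or more the median coefficient of variation (SD over mean, from CPM) was 3.81%. By level it was 6.79% from 1 to 10 FPKM, 3.85% from 10 to 100 and 3.47% above, where counting alone would give 3.83%, 1.92% and 0.835%. It was 23.0% from 0.1 to 1 FPKM, so levels in that range are known only roughly. Without NC 1 the median over the genes at 10 FPKM or more was 2.07%. The median absolute log2 difference was 0.04 between NC 2 and NC 3, and 0.08 and 0.07 between NC 1 and these. NC 1 differed by gene length. Its median log2 difference from the mean of NC 2 and NC 3 was 0.09 among the shortest of these genes, ranked in 4 equal groups by length (group median 1393 bases) and -0.08 in the longest (median 6672 bases). Ribosomal protein genes, which are short, took 8.49% of counts in NC 1, 7.83% in NC 2 and 7.93% in NC 3. The mitochondrial genome took 6.75%, 5.98% and 6.22%. What set NC 1 apart was not tested.

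**Figure D1:**
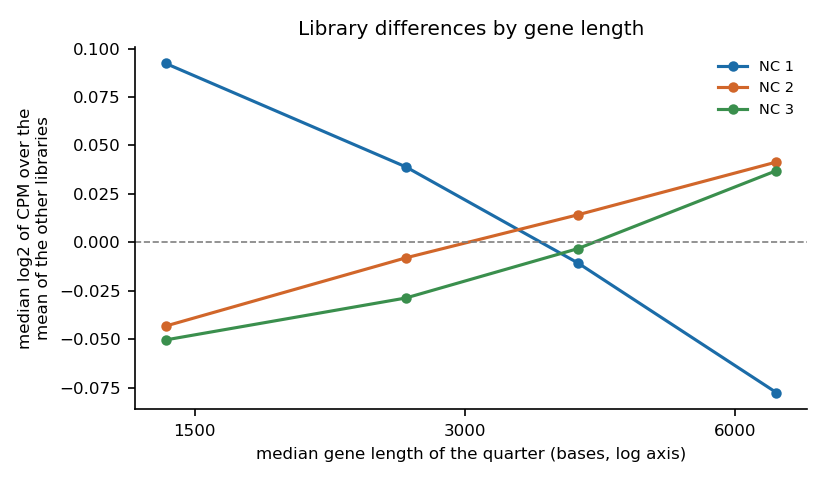
Median log2 of each library's CPM over the mean of the other libraries (y axis) in 4 groups of genes by length (x axis, log scale, drawn at the median length of the group), for genes with a mean of 10 FPKM or more. NC 1 lies above 0 for short genes and below 0 for long ones, while NC 2 and NC 3 slope the other way.

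Of the 24180 symbols, 11219 were present, 9858 lay in between and 3103 were not detected, so the background share of present genes is 46.4%. By RefSeq biotype, 10575 of 16547 protein-coding symbols were present (63.9%), against 463 of 6210 long non-coding RNAs (7.46%). The median level was 3.57 FPKM over all protein-coding symbols and 0.0206 over long non-coding RNAs. High levels were reached by few genes, since 5033 had a mean of 10 FPKM or more, 505 of 100 or more and 60 of 1000 or more. The 184 highest genes held 50% of the summed FPKM and the 4093 highest held 90%. The lists of genes described below hold 1152 genes, of which 1091 are in the tables and 828 were present. They were picked for known roles, so their share of 75.9% present is read against the 63.9% of protein-coding symbols rather than as a result. The share of each list below is read in the same way.

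**Figure D2:**
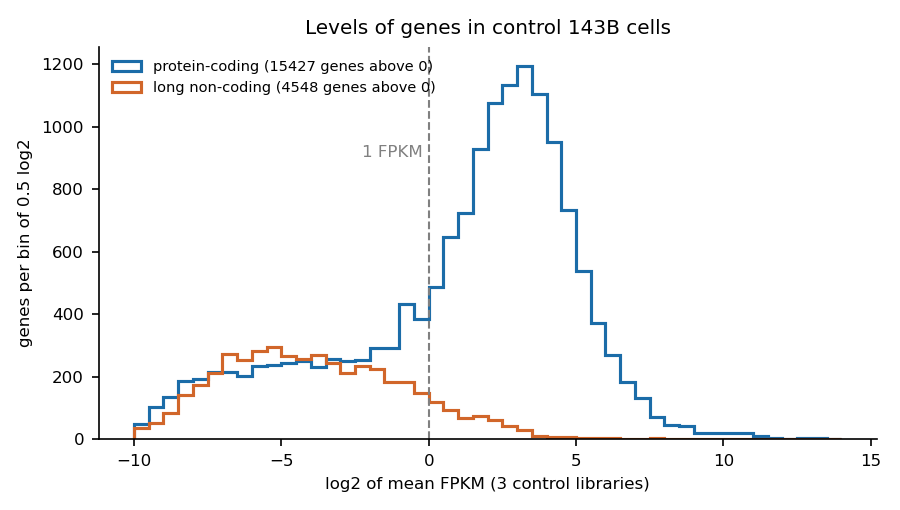
Histogram of gene levels, with log2 of mean FPKM over the 3 control libraries on the x axis and the number of genes per bin on the y axis, for protein-coding genes (blue) and long non-coding RNAs (orange) with a mean above 0. The protein-coding genes form a main peak above the dashed line at 1 FPKM, while most long non-coding RNAs lie below it.

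The promoters of abundant genes held more CpG than those of scarce ones. RefSeq promoters (GRCh38.p14) could be matched to 17462 listed symbols, and the 250 bases before the start were used. CpG dinucleotides, the sites of DNA methylation, are depleted from most of the human genome but kept in CpG islands. The median ratio of observed to expected CpG was 0.265 in 1879 genes not detected and 0.550 in 6307 genes with counts and a mean under 1 FPKM. It was 0.822 between 1 and 10 FPKM, 0.854 between 10 and 100, and 0.879 in the 401 genes at 100 FPKM or more. The word TATAAA, on either strand, had a different order. It stood in 14.4% of promoters of genes not detected, in 4.01% of those between 10 and 100 FPKM, and in 10.5% of those at 100 FPKM or more, beside 11.1% of all 27303 promoters in the table. The word CCAAT was in 33.9% of promoters of genes not detected and in 41.6% at 100 FPKM or more, beside 33% of all. The word TGAGTCA, the letters AP-1 prefers, was in 6.01% and 2.99% of the same groups and in 4.16% of all. These shares are descriptions of letters in a window, over genes that are not independent of each other.

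Single genes departed from this order. The ratio of observed to expected CpG was 0 in ANXA1 (211 FPKM) and 0.155 in AXL (141 FPKM), but 1.08 in CDKN2A (0 counts). The promoters of 7 genes, chosen after their levels were known and without such cases, illustrate both ends of the order and not its spread. They are printed as the 150 bases before the start, 5′ to 3′ on the strand of the gene, with each CG dinucleotide and the word TATAAA in capitals. The abundant genes are S100A6 (1389.5 FPKM), a calcium-binding protein, TMSB10 (2142 FPKM), an actin-binding thymosin, and PHGDH (444 FPKM), the enzyme that starts serine synthesis. The scarce ones are S100A7 (0.0212 FPKM), a skin protein of the S100 family, MMP10 (0.144 FPKM), a stromelysin, BGLAP (0.112 FPKM), the bone protein osteocalcin, and SOST (0 counts), the osteocyte product sclerostin.
S100A6, chr1:153535992-153536141, minus strand: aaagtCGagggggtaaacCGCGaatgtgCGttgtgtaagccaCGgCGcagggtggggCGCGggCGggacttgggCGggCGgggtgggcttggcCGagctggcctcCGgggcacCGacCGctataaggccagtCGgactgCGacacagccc
TMSB10, chr2:84905506-84905655, plus strand: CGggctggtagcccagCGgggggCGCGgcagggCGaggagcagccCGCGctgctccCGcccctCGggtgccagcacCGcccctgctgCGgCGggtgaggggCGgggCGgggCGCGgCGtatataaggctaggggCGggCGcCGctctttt
PHGDH, chr1:119711784-119711933, plus strand: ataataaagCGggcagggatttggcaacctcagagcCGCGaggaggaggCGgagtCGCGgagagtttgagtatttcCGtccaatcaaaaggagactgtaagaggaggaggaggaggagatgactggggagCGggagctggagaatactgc
S100A7, chr1:153460652-153460801, minus strand: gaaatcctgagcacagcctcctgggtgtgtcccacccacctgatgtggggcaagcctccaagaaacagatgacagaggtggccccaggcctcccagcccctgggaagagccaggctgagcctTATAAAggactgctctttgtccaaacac
MMP10, chr11:102780629-102780778, minus strand: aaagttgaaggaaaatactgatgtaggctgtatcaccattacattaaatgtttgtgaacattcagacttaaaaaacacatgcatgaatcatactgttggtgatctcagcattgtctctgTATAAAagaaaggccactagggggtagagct
BGLAP, chr1:156242034-156242183, plus strand: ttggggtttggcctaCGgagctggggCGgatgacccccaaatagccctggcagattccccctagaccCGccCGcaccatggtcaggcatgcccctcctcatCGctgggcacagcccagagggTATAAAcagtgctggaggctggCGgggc
SOST, chr17:43758792-43758941, minus strand: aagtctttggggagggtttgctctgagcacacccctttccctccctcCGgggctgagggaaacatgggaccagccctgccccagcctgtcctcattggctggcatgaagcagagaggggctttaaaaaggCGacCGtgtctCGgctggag
S100A6 and TMSB10 held 17 and 20 CG dinucleotides in these stretches and PHGDH held 8, against 0 in S100A7, 0 in MMP10, 6 in BGLAP and 4 in SOST. S100A6 and S100A7 belong to the same family and lie on the same chromosome, and their mean levels were 1389.5 and 0.0212 FPKM. TATAAA stood in the printed stretches of S100A7, MMP10 and BGLAP, and farther upstream, within the 250 bases, in PHGDH.

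Mitochondrial and ribosomal protein genes led the transcriptome. Of the 25 highest genes, 10 were of the mitochondrial genome and 10 encoded ribosomal proteins. COX2, a cytochrome c oxidase subunit encoded in mitochondria (not the prostaglandin enzyme), stood first at 14688, 12797 and 13804 FPKM in NC 1, NC 2 and NC 3. It was followed by its fellow subunits COX1 (11216 ± 653) and COX3 (11141 ± 826), then the ATP synthase subunit ATP6 (6602 ± 349), the complex I subunits ND4 (6333 ± 435) and ND4L (5355 ± 322), and cytochrome b, CYTB (3721 ± 224). ND1, ATP8 and ND2 followed at 2643, 2637 and 2318 FPKM, and ND6, the member encoded on the opposite strand, was the lowest of the 13 listed at 506 ± 14.8. ATP8 with ATP6 and ND4L with ND4 overlap on the mitochondrial genome and share reads. The ribosomal protein genes in this group included RPS18 (3418 ± 135), RPS2 (2607), RPLP0 (2464), RPL13A (2088), RPSA (2069), RPL41 (1809), RPL26 (1793) and RPS4X (1785). The remaining 5 were the translation factor EEF1A1 (3301 ± 29.4), ACTB, the cytoplasmic actin (2949.5 ± 85.4), TMSB10 (2142 ± 163), above its relative TMSB4X (533), the glycolytic enzyme GAPDH (1917 ± 104) and the mesenchymal filament VIM (1735 ± 62.7). The 50 highest genes together held 33.2% of the summed FPKM.

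Leaving out mitochondrial and ribosomal protein genes, the next most abundant coding genes mixed general and tumour-associated products. HSPA8, the constitutive cytosolic chaperone, was at 1661 ± 18.6 FPKM, and MMP1, the interstitial collagenase, was at 1569 ± 9.82. The next were the ribosome-bound scaffold RACK1 (1478), S100A6 (1389.5 ± 77.2), ACTG1 (1354), prothymosin PTMA (1269.7), the secreted lectin LGALS1 (1244 ± 87.1) and the translation factor EEF1G (1163). Then came HMGA1, a chromatin architectural protein abundant in embryos and tumours, at 1013 ± 21.8 FPKM, beside the tubulins TUBA1B (1115) and TUBB (852), profilin PFN1 (1047) and the elongation factor EEF2 (1034). Ferritin light chain FTL (987), ENO1 (960.0), PKM (951), the metallothionein MT2A (929) and cofilin CFL1 (906) followed. All 17 genes of a list of common reference genes were present, from TBP, the TATA-binding protein, at 12.6 ± 1.27 FPKM up to EEF1A1.

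Osteoblast genes were partly present, with SP7, ALPL, BGLAP and the osteocyte genes PHEX and SOST below 1 FPKM or not detected. Of 25 listed osteoblast-lineage genes, 15 were present (60%, beside 63.9% of protein-coding symbols) and 3 were not detected. RUNX2, the master regulator of the lineage, was at 2.57, 2.88 and 2.63 FPKM in the 3 libraries. Its relative RUNX1 was higher at 6.62 ± 0.189, with no overlap between libraries (log2 RUNX2/RUNX1 -1.30 ± 0.05). SP7, which acts after RUNX2, had 0 counts in all 3. The partner CBFB (31.7 FPKM) and the stress and osteoblast factor ATF4 (106) were higher than the homeobox and bHLH factors MSX2 (3.80), DLX5 (1.82) and TWIST1 (6.23), and DLX3 was at 0.155.

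Among the products of osteoblasts, SPARC (osteonectin) stood at 98.8 ± 2.07 FPKM, well above the other matrix products. COL1A1, the chain that makes up most of bone collagen, was at 1.42, 1.51 and 1.56, close to the threshold for present. Alkaline phosphatase ALPL, needed for mineral, was at 0.977, 0.924 and 0.878, below 1 in every library. Osteopontin SPP1 was at 6.5 ± 0.584 FPKM, osteocalcin BGLAP at 0.112 ± 0.115 and matrix Gla protein MGP at 0.0379. The pyrophosphate handlers ANKH (13.9) and ENPP1 (2.65) were present and the phosphatase PHOSPHO1 was at 0.351. Osteoprotegerin, TNFRSF11B, which blocks osteoclast formation, was at 13.5 ± 0.312 FPKM while its target TNFSF11 (RANKL) had 0 counts. The parathyroid hormone receptor PTH1R was at 0.251 ± 0.0520, and the osteocyte genes PHEX and SOST were at 0.25 and 0. COL1A2, IBSP, OMD, DMP1, MEPE and FGF23 are not listed.

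Markers of other cell types were mostly below 1 FPKM, with a few genes standing well above their lists. Of the mesenchymal stromal surface genes, 7 of 11 were present, led by the hyaluronan receptor CD44 (108 ± 0.393 FPKM), ANPEP (74.6), NT5E (CD73, 48.3 ± 0.382), MCAM (20.3) and ENG (CD105, 20.1 ± 0.434). THY1 (CD90), usually counted with NT5E and ENG as a stromal marker, had 0 counts in all 3. In the chondrocyte list the transcription factor SOX9 alone was present, at 59.2, 61.5 and 59.1 FPKM, while 2 members passed at 1 TPM and 3 by at least 10 counts per library. Its cartilage targets COL2A1 (0.0140) and ACAN (0.0113) were near 0, COMP was at 0.217 and COL10A1 had 0 counts.

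Of the listed adipocyte genes 2 of 6 were present, of muscle 1 of 5, of epithelium 2 of 8, of endothelium 2 of 7, of blood cells 1 of 7, of nerve 3 of 8, and of red cells and liver 0 of 3. At 2 FPKM the adipocyte and epithelial counts were 1 each, and by at least 10 counts per library the blood cell count was 2 and the nerve count 5. PPARG, the adipocyte regulator, was at 4.14 ± 0.234 FPKM and LPL at 1.70, while PLIN1 and CIDEC were at 0.0286 and 0.00643, FABP4 at 0.273 and ADIPOQ had 0 counts. The embryonic myosin MYH3 (2.22) was the one muscle gene present, with DES at 0.0618 and CKM not detected. MYOD1 and MYOG, the regulators of skeletal muscle, are not listed. EPCAM, an epithelial adhesion protein, was at 10.0, 9.28 and 10.3 FPKM and CLDN3 at 1.92, whereas E-cadherin CDH1 was at 0.0175 ± 0.0160, KRT5 at 0.0124, ESRP1 at 0.0876 and GRHL2 at 0. TIE1, a receptor of endothelial cells, stood at 46.4, 46.5 and 46.5 FPKM and the factor ERG at 2.73, while the defining endothelial genes PECAM1 (0.105), CDH5 (0.0841), VWF (0.0212) and KDR (0.0300) were near 0. CD68, a lysosomal protein used as a macrophage marker, was at 85.6 ± 4.96 FPKM with LYZ at 0.0435, CD14 at 0.340 and CSF1R at 0.0402, while PTPRC (CD45) and CD3E are not listed. The neuronal tubulin TUBB3 (47.1 ± 1.23), ENO2 (17.1) and NCAM1 (6.46) were present, with MAP2 at 0.210, GFAP at 0.0151 and SOX10 at 0. ALB and APOA1 were at 0.0317 and 0.0144 FPKM, and HBA1 was not detected, and HBB is not listed.

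**Figure D3:**
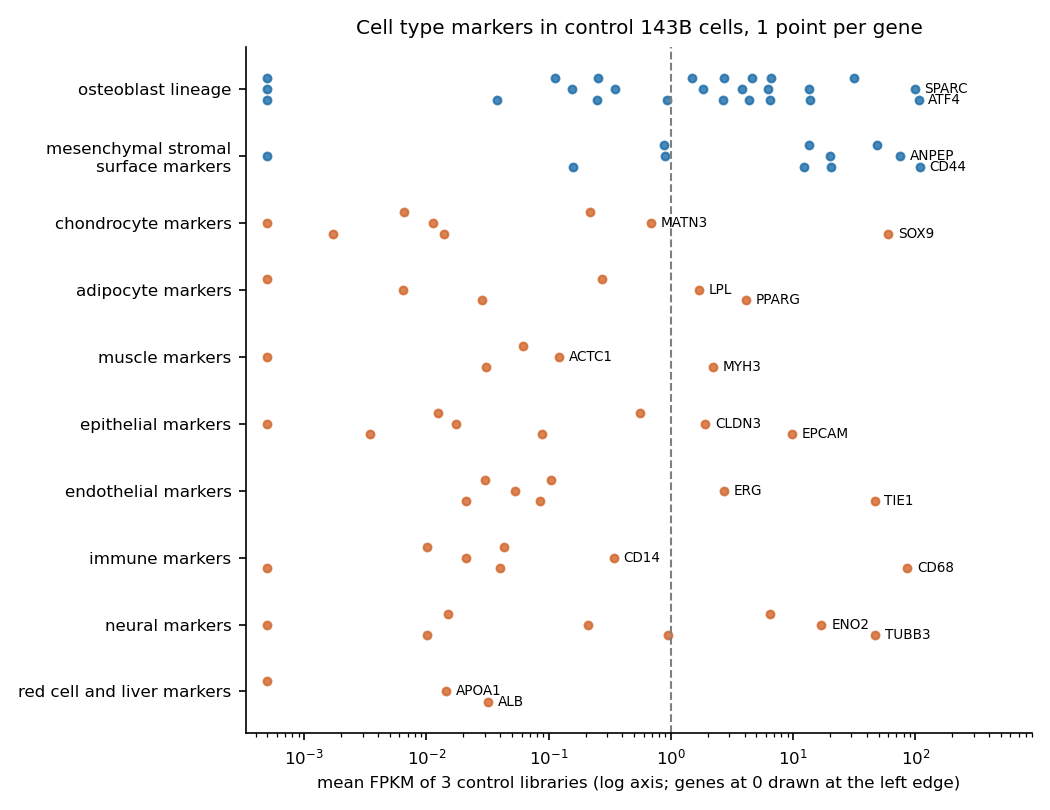
Mean FPKM over the 3 control libraries (x axis, log scale) of each listed gene of 10 cell type lists (y axis), with 1 point per gene, the highest of each list named and genes at 0 drawn at the left edge. The osteoblast and stromal lists (blue) hold most of the points right of the dashed line at 1 FPKM, and SOX9, TIE1, CD68 and TUBB3 stand apart from the rest of their lists.

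Of the HOX genes, which keep a record of position along the body axis, 31 of 39 reached 1 FPKM in all 3 libraries. This share of 79.5% stands beside 63.9% of protein-coding symbols and 75.9% over all lists. The HOXB cluster was highest, with a median of 14 FPKM against 5.23 in HOXC, 3.80 in HOXA and 1.68 in HOXD. HOXB2 (28.3 ± 1.31), HOXB9 (27.5 ± 2.23) and HOXB6 (27.4 ± 0.458) had overlapping libraries at the top, above HOXB4 (23.7 ± 0.934) and HOXB7 (19.7 ± 1.28). HOXB1, the most 3′ member, had 0 counts, and HOXB13, the most 5′ one, was at 1.82 FPKM. HOXC10 (17.7 ± 0.989) and HOXC6 (12.8 ± 0.346) led HOXC, above HOXC4 (8.17), HOXC8 (6.33) and HOXC13 (5.23), and HOXC12 was at 0.00575. In HOXA the highest were HOXA10 (6.57), HOXA4 (5.24) and HOXA11 (5.13), and in HOXD they were HOXD9 (5.83), HOXD4 (5.15) and HOXD8 (3.97). Of the limb patterning factors, TBX15 stood at 54.3, 54.6 and 57.2 FPKM, above SHOX2 (8.20) and TBX3 (3.32). PITX1, which specifies the hindlimb together with TBX4, was at 6.84 ± 0.889 FPKM while TBX4 was at 0.0157 ± 0.0100. TBX5, the forelimb counterpart, is not listed.

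**Figure D4:**
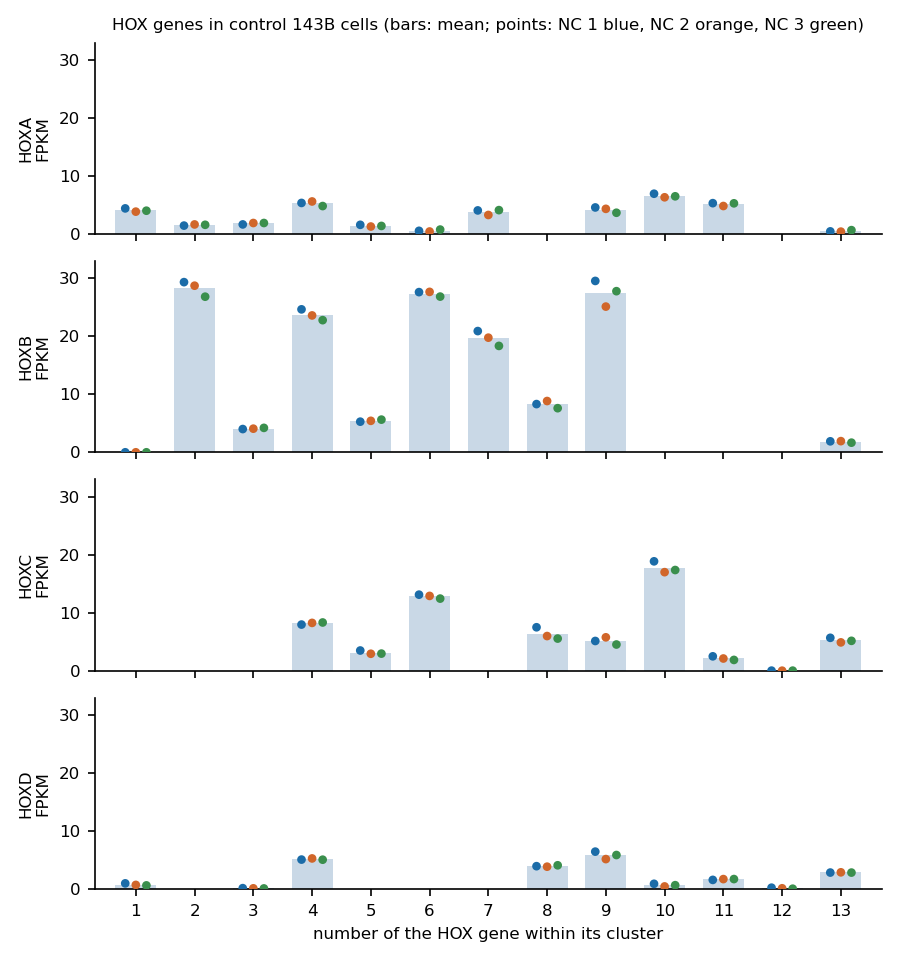
FPKM (y axis) of the HOX genes by their number within the HOXA, HOXB, HOXC and HOXD clusters (x axis), with bars at the mean of the 3 control libraries and points for each library. HOXB2, HOXB4, HOXB6, HOXB7 and HOXB9 have the highest means, and HOXB1 sits at 0.

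Of the 28 listed collagen chains 17 were present (60.7%, beside 63.9% of protein-coding symbols), and 11 at a threshold of 2 FPKM. Of 9 listed fibrillar chains, 4 were present, none above the 7.74 FPKM of COL27A1. COL5A2 and COL5A1 followed at 3.33 and 2.78, and COL3A1 and COL11A1 had 0 counts in all 3. The basement membrane chain COL4A2 was at 63.1, 66.7 and 64.4 FPKM. COL4A1, which assembles with it and is transcribed from the same promoter region, was at 16.9, 18.9 and 18.2, a log2 ratio COL4A1/COL4A2 of -1.85 ± 0.04. The lengths used for COL4A1 and COL4A2 were 15595 and 6446 bases, and their summed counts 30331 and 45061. Part of this ratio therefore comes from the lengths. The other basement membrane chains were lower, COL18A1 at 4.31, COL4A5 at 1.67 and COL4A6, COL4A3, COL4A4 and COL15A1 below 1, so that 4 of 8 were present with a median of 1.00 FPKM. The fibrillar median was 0.183. COL6A2 (41.2 ± 0.637), COL6A3 (35.4 ± 3.66), the transmembrane COL13A1 (30.6 ± 1.15), COL6A1 (16.1 ± 0.281) and COL12A1 (13.2 ± 1.13) led the microfibrillar and other collagens. The machinery that folds and crosslinks collagen was fully present, 12 of 12 genes, from the disulfide isomerase P4HB (162), the collagen chaperone SERPINH1 (62.4) and the lysyl hydroxylase PLOD1 (39.0) to the lysyl oxidases LOXL2 (29.3), LOXL1 (28.2) and LOX (8.83).

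Of all matrix glycoproteins, proteoglycans and collagen-processing genes 38 of 41 were present. The glycoproteins were led by the matricellular CCN1 (253 ± 7.25 FPKM) and CCN2 (194 ± 1.36), the laminin chain LAMB1 (115 ± 5.46), SPARC and thrombospondin THBS1 (64.1 ± 4.00). Fibronectin FN1 was at 19.9 ± 1.85, tenascin TNC at 16.1 and elastin ELN at 0.00226. All 9 listed proteoglycans were present, between 6.44 FPKM in GPC4 and 49.3 in biglycan BGN, with SRGN (33), SDC1 (27.9), SDC4 (27.4) and GPC1 (11.2) next. POSTN, DCN and LUM are not listed.

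MMP1 was far above the rest of its family. Its FPKM was 1560.0, 1579 and 1567 in NC 1, NC 2 and NC 3, which ranked it 29 among all symbols. On chromosome 11, RefSeq places 9 MMP genes in one cluster, of which 8 are listed here. The stromelysin MMP3 was at 0.207, 0.477 and 0.284 FPKM, the stromelysin MMP10 at 0.215, 0.139 and 0.0775 and the collagenase MMP13 at 0.0428, 0.120 and 0.110. These neighbours were below 1 FPKM in every library. MMP7, MMP12 and MMP8 summed to 8, 1 and 1 counts over the 3 libraries and MMP20 had 0, while MMP1 had 333712. Outside the cluster the membrane-bound MMP14 was at 51.4 ± 2.37 FPKM and the gelatinase MMP2, which MMP14 activates, at 15.9 ± 0.639, with MMP17 (4.79), MMP15 (2.03) and MMP9 (2.00) lower.

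The tissue inhibitors of metalloproteinases were all present, TIMP1 highest at 60.4 ± 6.52 FPKM, then TIMP3 (40.4 ± 1.15), TIMP2 (9.77 ± 0.505), TIMP4 (9.13) and the membrane inhibitor RECK (2.36). By counts, which are not divided by length, TIMP3 exceeded TIMP1. Of the plasminogen system, urokinase PLAU was at 81.9 ± 2.57, its receptor PLAUR at 53.4 ± 2.49, SERPINE2 at 50.5 and PLAT at 20.4. Of the sheddases, ADAM9 was highest (50.8), above ADAM19 (13.1), ADAM15 (12.6), ADAM10 (10.0) and ADAM17 (3.68). The cathepsins CTSD, CTSB, CTSZ and CTSL were at 101, 90.7, 51.7 and 44.6 FPKM, and CTSK, the protease of osteoclasts, at 0.799.

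Mesenchymal adhesion genes were present together with the keratins of simple epithelia, 27 of 33 adhesion and transition genes in all. N-cadherin CDH2 was at 27.9, 29.9 and 30.0 FPKM and E-cadherin CDH1 at 0.0357, 0.00557 and 0.0112, with the osteoblast cadherin CDH11 at 10.4 ± 0.934, CDH4 at 10.3 and CDH13 at 9.47. The catenins CTNNB1 (77.3) and CTNNA1 (53.8) were abundant, while JUP was at 2.79 and CTNND1 at 0.297. All 8 listed factors of epithelial-mesenchymal transition were present, TWIST2 (18.1 ± 0.517) and ZEB1 (13.8 ± 1.08) highest, then FOXC2 (9.18), PRRX1 (8.06), SNAI2 (6.56), TWIST1 (6.23), SNAI1 (3.27) and ZEB2 (2.96). VIM was at 1807, 1690.3 and 1709 FPKM, above the keratins KRT18 (656, 598 and 591) and KRT8 (189, 182 and 177), which pair in simple epithelia. The log2 ratio VIM/KRT18 was 1.5 ± 0.04 and KRT18/KRT8 was 1.75 ± 0.04. KRT7 was at 1.09 FPKM and KRT19 at 0.0870, and the lamins ran LMNB2 (86.3), LMNB1 (46.3) and LMNA (33.5).

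Integrin ITGB1, the subunit shared by most collagen, fibronectin and laminin receptors, was at 214 ± 16 FPKM. Among its partners ITGA6 (78.6 ± 6.16) and ITGA3 (66.6 ± 0.906), both laminin receptors, exceeded the fibronectin receptor ITGA5 (38.8 ± 0.0980) and the collagen receptor ITGA2 (33.4), and ITGB5 was at 46.2. ITGAV and ITGB3 were at 12.0 and 10.4. Of 24 actin-related genes, 22 were present and 14 had a mean of 100 FPKM or more. The cytoplasmic actins ACTB and ACTG1 differed by a log2 ratio of 1.12 ± 0.04, and the smooth muscle genes ACTA2 (2.55), TAGLN (2.89) and CNN1 (0.0457) were low.

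Small calcium-binding proteins and lectins included some of the most abundant products, with 19 of 23 present. S100A6 was at 1479, 1346 and 1344 FPKM and S100A11 at 534 ± 52.0, S100A16 at 363 ± 12.7, S100A10 at 272 ± 18.8 and S100A2 at 144 ± 10.3, whereas S100A4, a gene linked to metastasis, was at 8.86 ± 0.203 and S100A1, S100A14 and S100A7 were below 1. ANXA2, which binds S100A10 in a complex at the membrane, was at 571 ± 10.5, followed by ANXA1 (211), ANXA5 (202) and ANXA6 (64.8), with ANXA3 at 0.00635. LGALS1 exceeded LGALS3 (42.8 ± 1.87) by 4.86 ± 0.06 on the log2 scale.

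Cell cycle genes were almost all present, 51 of 52 listed (98.1%). Cyclin D1, CCND1, which drives entry from G1, was at 258, 261 and 265 FPKM, against 14 ± 0.462 for CCND2 and 13.6 ± 0.204 for CCND3. The log2 ratio CCND1/CCND2 was 4.22 ± 0.04. Of its kinase partners CDK4 was at 118, 108 and 108 and CDK6 at 13.1, 15.4 and 14.9. CDK2 was at 27.4 and its cyclins CCNE1 and CCNE2 at 7.45 and 5.71, an order that turned by counts. The mitotic genes CCNB1 (88.3 ± 0.887), AURKB (63.3 ± 2.63), PLK1 (62.8 ± 0.865), CCNB2 (54.1 ± 2.44), CCNA2 (40.4 ± 0.293) and CDK1 (33.7 ± 0.519) lay in one range, with CDC25C lowest at 5.17. Replication genes were led by MCM7 (149 ± 0.808), the sliding clamp PCNA (133 ± 9.10) and MCM3 (125 ± 1.43), with MCM2 (74.7), TOP2A (60.5), MKI67 (40.2 ± 3.27) and BIRC5 (18.4) also present. RB1, the retinoblastoma protein that cyclin D kinases inactivate, was at 11.1, 12.4 and 12.1 FPKM, and of the E2F factors the repressive E2F4 (63.2) exceeded E2F1 (20.6), with TFDP1 at 45.7 and E2F7 at 15.3.

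Among the listed inhibitors of these kinases CDKN2A was the only one with no counts. CDKN1A (p21) was at 34.5, 33.5 and 30.6 FPKM, CDKN3 at 24.6, CDKN1B (p27) at 13.2 ± 0.555, CDKN2C at 4.31 and CDKN2D at 3.61. CDKN2A encodes both p16, the inhibitor of CDK4 and CDK6, and ARF, which restrains MDM2, and it had 0 counts in NC 1, NC 2 and NC 3. The levels of its neighbours were looked up in RefSeq order on chromosome 9, from MLLT3 to ELAVL2. Of 25 protein-coding genes in this stretch, 13 are listed. On one side MLLT3 was at 2.84 ± 0.0373 FPKM, FOCAD at 11.4 ± 0.600 and KLHL9 at 10.6 ± 0.644, with MIR31HG, a microRNA host (1.66 ± 0.265), and the interferon IFNE (0.372 ± 0.0818) nearer to CDKN2A. HACD4, between FOCAD and KLHL9, had 0 counts. On the other side DMRTA1 was at 1.41 ± 0.0514, LINC01239 at 0.126 and ELAVL2 at 0.00294. MTAP, CDKN2B, CDKN2B-AS1 and CDKN2A-AS1, which lie next to CDKN2A, are not listed. These are levels of RNA alone, and the genomic copies were not examined.

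Of 48 listed oncogenes, tumour suppressors and their pathway genes 39 were present. Of the small GTPases that pass on growth signals, NRAS was at 56.6, 58.9 and 58.6 FPKM in NC 1, NC 2 and NC 3 and HRAS at 47.6, 45.2 and 45.0. Their libraries did not overlap (log2 NRAS/HRAS 0.34 ± 0.08). Downstream, the kinase ARAF was at 10.6 and BRAF at 1.38, RRAS at 12.1, and the RAS brake NF1 was at 4.87. MYC was at 6.96, 6.38 and 6.36 FPKM and its partner MAX at 33.1 ± 1.70, while MYCL (0.390) and MYCN (0.0642) were below 1.

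The ubiquitin ligase MDM2 was at 4.38 ± 0.177 FPKM and its relative MDM4 at 3.39. TP73 (2.59) was present and TP63 is not listed. In the PI3K and mTOR pathway, which carries growth factor signals to translation, all 13 listed genes were present. AKT1 (78.6 ± 2.52) was above AKT2 (10.9 ± 0.110), with MTOR at 20.6 ± 1.14, TSC2 at 11.0 and PIK3CA at 3.86. Genes often gained or lost in osteosarcoma ranged from COPS3 (70.2 ± 1.29), VEGFA (40.6 ± 0.756), PRIM1 (34.5) and the helicases RECQL4 (11.5), WRN (6.12) and BLM (5.77) down to FHIT (0.199), DLG2 (0.0161) and LSAMP (0.00111).

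Both groups of telomere maintenance genes had transcripts. TERT, the catalytic subunit of telomerase, was at 1.14, 1.36 and 1.03 FPKM, just above the threshold for present. The telomerase RNA-binding proteins NOP10 (301 ± 29.5), NHP2 (159 ± 6.71), DKC1 (64.4 ± 1.63) and GAR1 (38.9) were much higher and WRAP53 was at 7.44, while TERC is not listed. ATRX, whose loss marks alternative lengthening of telomeres, was at 9.24, 12.4 and 12.5 FPKM, lowest in NC 1, and its partner DAXX at 36.7 ± 1.22. Their histone H3.3 genes H3-3B and H3-3A were at 183 and 71.4 and the histone chaperones ASF1B and ASF1A at 25.6 and 17.4. All 6 shelterin genes were present, from TERF2IP (33.9), ACD (18.1), TERF2 (17.6) and TINF2 (14.3) to POT1 (8.51) and TERF1 (6.82).

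Receptor tyrosine kinases pass growth factor signals into the cell. Of 52 listed, 28 were present (53.8%, beside 63.9% of protein-coding symbols). AXL, the receptor of GAS6, stood first at 141, 142 and 140.2 FPKM, followed by the ephrin receptor EPHA2 at 54.6, 52.3 and 52.2 and the WNT co-receptor RYK at 33.5, 33.6 and 33.6. EGFR (26.4 ± 2.44), PTK7 (23.6 ± 1.03), the collagen receptor DDR2 (21.2 ± 2.61), FGFR1 (19.6 ± 0.460), MET (19 ± 1.07), PDGFRA (18.5 ± 1.22) and IGF2R (17.5 ± 1.2) followed. From EGFR down to IGF2R the ranges of neighbouring genes overlap, so their order is not fixed by 3 libraries. IGF2R was listed with the insulin family receptors and is in these counts, but it has no kinase domain. IGF1R was at 12.0 ± 0.705 and INSR at 2.07 ± 0.188, with a log2 ratio of 2.54 ± 0.08. Within families the members differed widely. PDGFRA exceeded PDGFRB (0.167, 0.128 and 0.176 FPKM), AXL exceeded its relatives MERTK (9.29 ± 0.289) and TYRO3 (6.31 ± 0.255), and EGFR exceeded ERBB2 (5.27 ± 0.334), ERBB3 (0.115) and ERBB4 (0.0157). KIT was at 1.04 FPKM, FLT1 at 4.13, FLT4 at 2.33, FGFR4 at 6.66, DDR1 at 13.1, EPHB4 at 10.4 and EPHB2 at 8.68, and MUSK and EPHA10 had 0 counts.

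**Figure D5:**
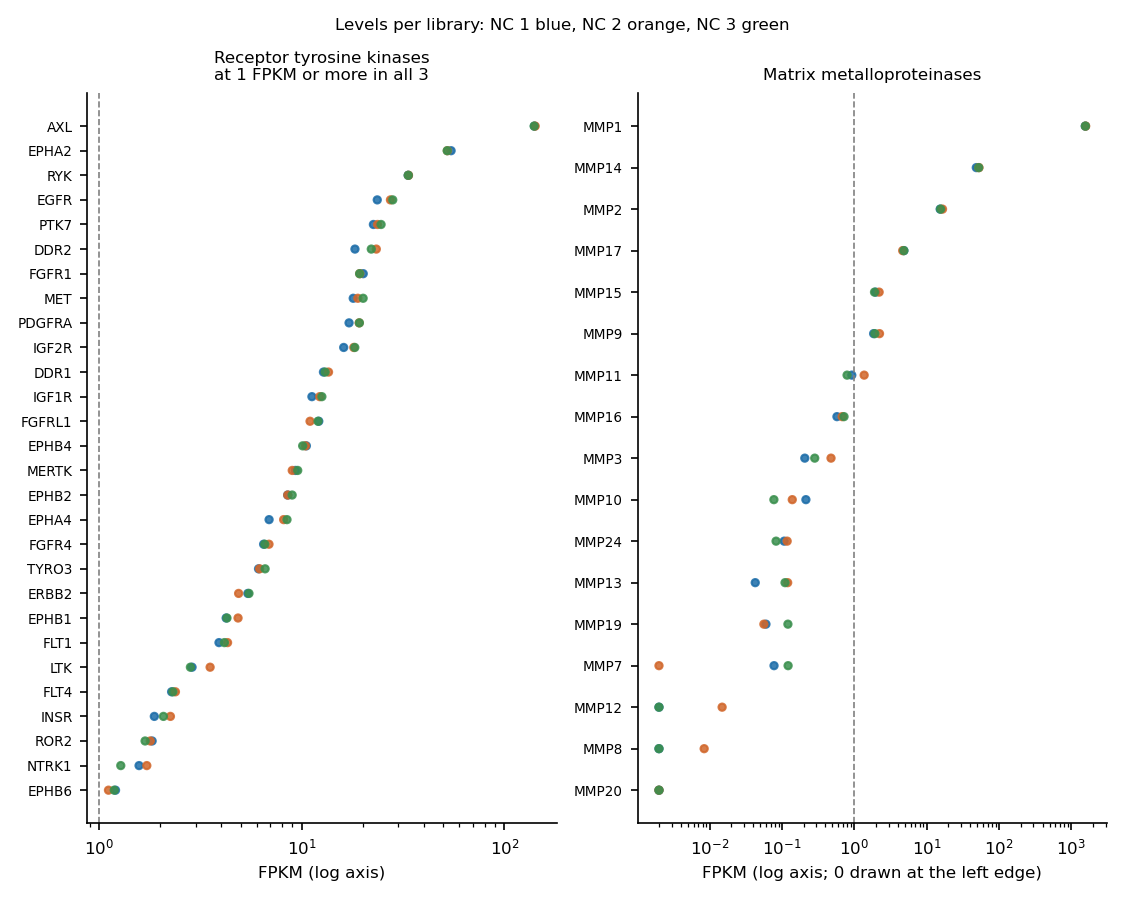
FPKM per library (x axes, log scale, 1 point for each of the 3 control libraries) of the listed receptor tyrosine kinases present in all 3 (left) and of the matrix metalloproteinases (right), each ordered by mean, with 0 drawn at the left edge of the right panel. The left list includes IGF2R, which has no kinase domain. AXL stands above the other receptors, and MMP1 lies above MMP14, the next metalloproteinase, with no overlap.

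Of the ligands of these receptors, VEGFA was highest at 39.9, 41.4 and 40.4 FPKM, then IGF2 (20.1 ± 0.549), VEGFB (16), VEGFC (9.63) and GAS6, the ligand of AXL, at 7.31 ± 0.702. HBEGF (6.38), PDGFC (6.33), PDGFA (4.80) and FGF2 (4.65 ± 0.279) were present, EGF was at 0.00537, and HGF (the ligand of MET), EREG and FGF7 had 0 counts. Of 15 cytokines and chemokines, 6 were present (40%, beside 63.9% of protein-coding symbols). MIF, which is made by most cells, was at 458 ± 28.1 FPKM and IL11, a cytokine of the IL6 family, at 13.3, 12.3 and 11.9. CSF1 (4.33), IL1B (3.91), IL1A (2.54) and CXCL8 (2.12) were lower, IL6 was at 0.0785 ± 0.0676 and TNF and CSF2 had 0 counts.

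TGF-beta and BMP genes, which control matrix synthesis and bone formation, were present in 30 of 36 cases. TGFB1 was at 51.4, 49.4 and 48.2 FPKM and TGFB2 and TGFB3 at 0.298 ± 0.0543 and 0.737. Of the BMP ligands BMP7 (16.5 ± 0.514) was highest, above the protease BMP1 (8.25), BMP6 (5.41) and BMP2 (3.59 ± 0.279), with INHBB at 3.93. The receptor TGFBR2 was at 42.8 ± 1.42 and its partner TGFBR1 at 4.68 ± 0.161, with ACVR1 (10.3), BMPR2 (6.91) and ACVR1B (6.27) between. SMAD3, which carries TGF-beta signals, exceeded SMAD2 (2.17 ± 0.0473) at 22.9 ± 0.707, a log2 ratio SMAD2/SMAD3 of -3.40 ± 0.04. The lengths used for SMAD2 and SMAD3 were 42081 and 7289 bases, and their summed counts 9877 and 18020. SMAD3 was thus higher by counts too, but a large part of this ratio comes from the lengths. The inhibitory SMAD7 (8.42), SMAD4 (7.37), SMAD5 (7.11) and the BMP antagonist GREM1 (7.37) were present.

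In the WNT pathway, which promotes osteoblast formation, 27 of 35 listed genes were present. WNT7B (14.2 ± 1.00), WNT5A (3.95 ± 0.358) and WNT5B (2.50) were the highest ligands, WNT10B was at 1.01 on average, WNT11 at 0.206, and WNT1 and WNT2 had 0 counts. The secreted inhibitor DKK1 was at 103, 103 and 106 FPKM, above SFRP1 (24.1 ± 0.798) and DKK3 (16.7 ± 0.220). LRP5 (30.6 ± 1.33), the co-receptor that DKK1 blocks, exceeded LRP6 (8.49 ± 1.10), and FZD6 was the highest frizzled receptor at 20.0 ± 1.03. CTNNB1 (77.3 ± 0.426), GSK3B (12.1), LEF1 (10.2), AXIN1 (9.32) and TCF7L2 (6.46) were present, and AXIN2, a widely used target of the pathway, was at 1.11, 1.02 and 1.16 FPKM.

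NOTCH2 was the main Notch receptor at 15.2 ± 1.53 FPKM, with NOTCH1 at 2.88 ± 0.284 and NOTCH3 at 0.639. The target HES1 was at 32.8 ± 1.5, the ligand JAG1 at 11.6, HEY1 at 4.55 and DLL1 at 3.64. In the Hedgehog pathway the transducers SMO (7.97), SUFU (3.45), GLI3 (3.27) and GLI2 (3.14) were present, PTCH1 was at 1.36, and the target GLI1 (0.401 ± 0.0953) and the ligands SHH, IHH and DHH were below 1. All 15 listed genes of the Hippo pathway, which restrains the coactivators YAP1 and WWTR1, were present. WWTR1 (TAZ) was at 46.6, 50.2 and 49.6 and YAP1 at 31.5, 33.6 and 34.6 FPKM. Of their known targets, CCN1 (260.5, 252 and 246), CCN2 (195, 195 and 193) and ANKRD1 (90.1, 91.9 and 89.2) were above both and AMOTL2 (27.5, 28.2 and 28.8) below both, and TEAD4 (42.0) was the highest of the TEAD factors.

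Of AP-1 and immediate-early genes, which respond to growth factors within minutes, 14 of 17 were present. FOSL1 was at 303, 266 and 265 FPKM and JUN at 128, 129 and 128, whereas FOS was at 2.42, 2.13 and 1.84, FOSB at 0.630 and JUND at 8.83 ± 0.317. The log2 ratio FOSL1/FOS was 7.03 ± 0.12 and JUND/JUN was -3.86 ± 0.06. Of the other immediate-early genes IER3 (101), IER2 (84.3) and KLF6 (42.2) were high, JUNB (16.6) and EGR1 (15.9) intermediate, and EGR2 and EGR3 below 1.

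Of the nuclear receptors, which are ligand-activated transcription factors, 23 of 31 were present (74.2%, beside 63.9% of protein-coding symbols). The glucocorticoid receptor NR3C1 was at 2.99 ± 0.218 FPKM and the vitamin D receptor VDR at 2.53 ± 0.117, while the estrogen receptor ESR1 was at 0.00256, ESR2 at 0.551 and PGR at 0.251. RXRB (16.1, against 4.13 for RXRA), PPARD (9.87), RARG (4.51), THRA (4.32) and RARA (4.23) were the highest of that class. Among orphan receptors the clock repressor NR1D2 (23.0), the sterol receptor NR1H2 (20.5), NR2F2 (14.9), NR2F6 (12.7) and ESRRA (12.6) led. Of 32 G protein coupled receptors 19 were present (59.4%, below the same 63.9%), and 12 at 2 FPKM. They were led by the protease-activated receptors F2RL1 (32.8 ± 1.34) and F2R (17.6 ± 0.925), the lysophosphatidic acid receptor LPAR3 (16.6 ± 0.852), ADGRE5 (13.2) and ADGRL2 (10.9). LPAR1 was at 1.80, PTGER4 at 1.36, CXCR4, a receptor linked to metastasis, at 3.58 ± 0.306, and EDNRB and BDKRB1 had 0 counts.

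Class I antigen presentation genes, which show peptides to CD8 T cells, were present. B2M was at 147 ± 6.88, HLA-C at 30.5 ± 3.93 and HLA-B at 23.4 ± 1.54, with PSMB8 (22.3), TAP2 (21.5) and TAP1 (8.19). HLA-DRA and CIITA, the class II activator, had 0 counts, CD74 was at 0.00953 and HLA-DRB1 at 1.47. Of surface proteins that therapies aim at, the death receptors TNFRSF10B (61.7 ± 1.38) and TNFRSF10A (16.2) were highest, then CD276 (B7-H3, 16.1 ± 0.187), GPNMB (6.60), CD47 (6.60), CD274 (PD-L1, 6.46 ± 0.320) and ERBB2 (5.27). The ganglioside GD2 needs ST8SIA1 and B4GALNT1, which were at 0.122 and 4.13 FPKM, and CD80 and VTCN1 had 0 counts.

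PRAME, a cancer-testis antigen, was at 78.0, 79.6 and 78.6 FPKM. The other listed members of that class were near 0, MAGEC2 at 0.0776, MAGEA4 at 0.00329, CTCFL at 0.00132 and SSX1 at 0. Among pluripotency genes KLF4 (8.20), LIN28B, an inhibitor of let-7 microRNAs (4.50, 5.55 and 5.64), and SOX2 (1.47) were present, NANOG was at 0.00350 and POU5F1 at 0. Imprinted genes are expressed from the maternal or the paternal copy alone. IGF2 was at 19.5, 20.3 and 20.6 FPKM and its imprinted neighbour H19 at 0.0671, 0.157 and 0.136, GNAS was at 208, PEG10 at 16.2, MEST at 4.46 and DLK1 at 0. The snoRNA host genes SNHG29 (652), GAS5 (360.3 ± 9.01), ZFAS1 (253), SNHG32 (199) and SNHG6 (117) were the highest of all long non-coding RNAs by FPKM, while the nuclear RNAs MALAT1 and NEAT1 were at 15.2 ± 1.23 and 7.36 ± 0.194, and HOTAIR at 0.988. By summed counts MALAT1 (14393) and NEAT1 (18072) exceeded SNHG6 (8942). The lengths used for these genes were 8779, 22743 and 711 bases. Of chromatin enzymes 19 of 21 were present. The maintenance methyltransferase DNMT1 (63.3 ± 1.5), HDAC1 (55.8 ± 2.89), UHRF1 (38.0), SMARCA4 (35.6) and HDAC2 (18.5, above HDAC1 by counts) led, EZH2, which places the repressive H3K27 methyl mark, was at 7.30 ± 0.157, its relative EZH1 at 6.52, SMARCA2 at 12.9, DNMT3A at 2.92 and TET1 at 0.269.

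Glycolysis, which turns glucose into lactate, had 20 of 26 listed genes present and 9 at 100 FPKM or more. Of the isoenzymes of lactate dehydrogenase LDHB (395, 389 and 379.7) exceeded LDHA (283, 282 and 288), and of the hexokinases HK1 (63.6, 65.4 and 67.7) exceeded HK2 (21.4, 24.0 and 26.0). The libraries of these pairs did not overlap, with log2 LDHA/LDHB of -0.45 ± 0.04 and HK2/HK1 of -1.47 ± 0.10. PFKP (107 ± 1.07) was the main phosphofructokinase, above PFKL (25.9 ± 0.260) and PFKM (20.7 ± 1.00). GAPDH (1917), ENO1 (960.0) and PKM (951) were highest, TPI1, PGAM1 and PGK1 were at 279.6, 172 and 127, and ALDOA was listed at 3.90 with ALDOC at 5.67, though 53.5% of the exon bases of ALDOA overlap another gene. The lactate transporter SLC16A1 (64.9 ± 3.26) exceeded SLC16A3 (8.41 ± 0.0951), and the glucose transporter SLC2A1 (37.7 ± 1.03) exceeded SLC2A3 (7.67 ± 0.456), while SLC2A2 and PKLR had 0 counts. The pentose phosphate enzymes TALDO1 (156), PGD (105) and TKT (92.9) were abundant. PDHB was at 54.6 and the pyruvate carriers MPC2 and MPC1 at 7.20 and 6.36.

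Amino acid and one-carbon genes were present in 32 of 34 cases, with serine synthesis at high levels. PHGDH was at 450.2, 440.1 and 440.3 FPKM, PSAT1 at 325, 335 and 342 and the third enzyme PSPH at 19.4, 19.3 and 19.6. The mitochondrial serine enzyme SHMT2 was at 190.1, 178 and 178 and its cytosolic form SHMT1 at 19, 17.8 and 17.0, a log2 ratio of 3.34 ± 0.04. MAT2A (142), MTHFD1 (134) and MTHFD2 (95.8) were also high. Asparagine synthetase ASNS, with 44.6% of its exon bases in another gene, was listed at 3.03 ± 0.0938 FPKM, below the argininosuccinate synthase ASS1 (24.8 ± 0.654), PYCR1 (62.1), GOT2 (93.2), ODC1 (73.4), GLUD1 (64.8) and GOT1 (48.4). The glutamine and leucine carriers SLC1A5 (169 ± 2.60), SLC7A5 (145 ± 1.99) and SLC3A2 (136 ± 5.35) were high, with SLC38A2 (97.6), SLC38A1 (48.9) and the cystine carrier SLC7A11 (9.13).

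Thymidine kinase 1, TK1, the activity this line was selected to lack, had transcripts at 11.5, 10.5 and 10.5 FPKM, and the mitochondrial TK2 at 6.42, 6.67 and 6.75, while by counts TK2 exceeded TK1. Thymidylate synthase TYMS, which makes dTMP without salvage, was at 186, 179 and 177 FPKM. The tables count transcripts and do not show whether a transcript is intact. DCTPP1 (63.8), DUT (47.9) and the nucleoside transporter SLC29A1 (25.5) were present. Ribonucleotide reductase RRM1 and RRM2 were at 64.2 ± 0.991 and 47.1 ± 1.29, the salvage enzymes APRT (63.9), HPRT1 (50.2 ± 0.625) and UPP1 (41.1) in the same range, and CDA at 0.417. All 12 listed genes of purine and pyrimidine synthesis were present, IMPDH2 highest (201 ± 6.73), then GART (60.3), CTPS1 (49.9), PRPS1 (44.7) and CAD (29).

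Of 33 lipid genes 27 were present. The desaturase SCD (137 ± 3.51), FABP5 (119.7), HADHA (91.6), ACLY (68.1) and FASN (41.6 ± 1.36) led fatty acid metabolism, and the uptake receptor CD36 had 0 counts. Of cholesterol synthesis, FDFT1 was at 37.8, the regulators SREBF2 and SREBF1 at 23.3 and 17.1, and DHCR7 at 22.9. All 12 citrate cycle genes were at 10 FPKM or more, MDH2 (158), SDHB (105), MDH1 (87.7), CS (79.0) and SUCLG1 (75) highest. IDH1 exceeded IDH2 by 1.01 ± 0.04 on the log2 scale. TFAM (19.1), UCP2 (12.3) and NRF1 (5.37) were present, PPARGC1A was at 0.479 and UCP1 at 0.

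Chaperones help proteins fold, and some are made mainly after heat. The constitutive HSPA8 was at 1680.1, 1643 and 1660.1 FPKM, the inducible HSP90AA1 at 777, 808 and 798 and the constitutive HSP90AB1 at 591, 591 and 586. The heat-inducible HSPA1A was at 4.94, 4.04 and 4.78 and its near-identical copy HSPA1B at 6.78, 6.36 and 5.33. HSPA6, which is made under strong stress, was at 0.0740, 0.0808 and 0.0232. Other heat-responsive genes ranged between these, HSPB1 at 164 ± 9.07, BAG3 at 49.1, HSPH1 at 28.5 and DNAJB1 at 21.5. DNAJA1 (127) and the regulator HSF1 (34.7) were present, and CRYAB was at 0.00703. In the endoplasmic reticulum and mitochondria all 11 listed chaperones were present, HSPD1 (351), HSP90B1 (345), CALR (345), CANX (154) and HSPA5 (154 ± 2.87) highest and HSPE1 lowest (17.6). In GENCODE 29, 23.9% of the exon bases of HSPE1 lie in exons of another gene, so its level is uncertain.

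Iron storage genes FTL (987 ± 66.4) and FTH1 (624 ± 44.2) exceeded the transferrin receptor TFRC (54.9 ± 3.87), SLC39A14 (47.4), NCOA4 (41.2) and ACO1 (15.3), with the iron exporter SLC40A1 at 1.15 and HMOX1 at 5.88. Of the metal-binding metallothioneins MT2A was at 1034, 888 and 863 FPKM, MT1E at 129 and MT1X at 44.0. The peroxide and thiol enzymes PRDX1 (368), TXN (164), GPX1 (156), SOD1 (131) and GPX4, which protects lipids from peroxidation (105 ± 6.08), were abundant, GCLM (9.65) and SOD2 (4.72) lower by FPKM, and GPX2 and GPX3 below 1. The lengths used for SOD2 and SOD1 were 17592 and 895 bases, and their summed counts 8960 and 12679. Most of the difference between SOD2 and SOD1 therefore comes from the lengths. GCLM had 6656 summed counts over a length of 6387 bases.

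The BCL2 family sets the threshold for apoptosis, with survival members opposed by death members. Of the survival genes, MCL1 (179.7 ± 6.54) and BCL2L1 (55.9 ± 2.58) exceeded BCL2 (1.69 ± 0.229), with BIRC2 (30.2), BIRC5 (18.4) and BCL2A1 (17.6). The death genes CYCS (53.8), BAX (30.6), PMAIP1 (24.5), BOK (22.0) and DIABLO (14) were highest of 17 present of 19. The drug efflux pumps were led by ABCC1 (10.9 ± 0.674), ABCC4 (6.21) and ABCC5 (4.67), with ABCG2 at 2.10 and ABCB1, the P-glycoprotein gene, at 0.669, 0.730 and 0.946 FPKM. Of genes tied to osteosarcoma drugs, the doxorubicin target TOP2A was at 60.5 ± 3.25 and the folate carrier SLC19A1 at 3.50, with GSTP1 (393), TOP1 (66.0), TOP2B (33.8) and ERCC1 (18.7).

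Single genes varied little between the libraries. Of the 5033 genes with a mean of 10 FPKM or more, 4 ranged over more than 0.5 on the log2 scale between libraries. The uncharacterised LOC100288175 was at 26.5, 8.97 and 6.82 CPM in NC 1, NC 2 and NC 3, a range of 1.96 and the only one over 1. SNHG25, a snoRNA host (4.12, 2.85 and 3.16 CPM), and the tubulin TUBB2A (36.4, 27.8 and 25.7 CPM) were also highest in NC 1, and the RNA-binding protein RBM15 (27.0, 37.8 and 38.3 CPM) was lowest there. Among the next genes, TMEM160 (13.5, 11.1 and 9.81 CPM), CCDC167 (9.67, 7.15 and 7.74), TMEM35B (16.9, 12.5 and 15.3) and PINX1 (22.6, 20.1 and 16.9) were highest in NC 1. LINC00342 (45.9, 63.5 and 56.5 CPM), the homocysteine enzyme CBS (44.5, 57.4 and 60.6) and ATRX (107, 144 and 144) were lowest in it. In each of these NC 1 held one end of the range, though NC 2 in TMEM35B and NC 3 in PINX1 lay farther from the middle value.

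A set of related gene pairs kept their order in every library. Of 65 pairs of related genes set up for comparison, 64 had counts in all 3 libraries on both sides, and in all 64 the libraries of one gene did not overlap those of the other. With a median coefficient of variation of 3.81% at 10 FPKM or more, genes of clearly different level would seldom overlap. The share among other pairs of genes was not computed, so this count is not a result about related genes. The largest SD of a log2 ratio over libraries was 0.643, in MYC/MYCN, where MYCN is close to 0. No p-value is given, since these are levels of different genes in the same 3 libraries.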

How the data were processed

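The 3 control libraries of human 143B cells (n = 3) were read from their deposited tables. The counts are whole-number reads per gene, as the authors deposited them. The FPKM values were also deposited by the authors, and checked to be the counts per gene length and library total, since counts and FPKM together gave whole lengths within 0.001 bases for 100% of values. The sources used here name no aligner, counter, annotation or strand setting. Mouse builds stand in the submitters' processing notes, namely GRCm38 and mm10, although the samples are labelled human and the symbols are human, so no coordinates were taken from the files.

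From the tables, mean and SD over the 3 libraries were computed per gene, with a gene called present at 1 FPKM or more in each library. CPM, used for the spread, is the count scaled to the library total. Levels were summarised over 43 lists of genes and 65 pairs of related genes. The cells, lists and pairs were chosen with earlier results of these data known. Named are the 25 highest genes, the key members of each list, the 5 highest members of each role and those at 0 counts where room allowed, the pairs, and the 12 genes that ranged most between libraries. Some of these genes are not reported here. No test was run, because no other group enters. Python 3.11.15, pandas 2.3.3, numpy 2.4.6 and matplotlib 3.10.9 were used, and edgeR 4.0.16 gave TMM scaling factors only, which lay between 0.992 and 1.01. The range statistic was tested on simulated data in which 200 of 5033 genes were changed in 1 library. Taking the 200 widest ranges, it recovered 98%, 100% and 100% at 1.25-, 1.5- and 2-fold. The simulated libraries held counting noise only, which is less than the spread between the real ones, so these shares do not carry over to them. Promoters came from RefSeq (GRCh38.p14) and biotypes from RefSeq by symbol, directly for 22776 symbols and by synonym for 276, while 1128 had no match. Depth was 34434993 to 36790336 counts per library, and intervals and floors cover counting error only. Alternatives tried were other thresholds, TPM, counts in place of FPKM, leaving out the mitochondrial genome, and leaving out each library.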

Additional observations from a re-analysis of the deposited data

How the results depend on the processing

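The number of present genes ran from 9805 to 14397 over all thresholds and units tried, within 1.5 times the 11219 reported, and from 11285 to 11304 with 1 library left out. Genes with 0 counts numbered 3103, and 5213 when at most 1 count per library was allowed, 5877 when at most 3 summed counts were, and 3825 to 3892 with 1 library left out. The 50 highest genes held 33.2% of summed FPKM, 17.1% of counts, 23.5% of FPKM without the mitochondrial genome, and 32.8% to 33.7% with 1 library left out. The median coefficient of variation was 3.81%, and 5.30% over genes with a mean of 100 counts or more. It was 2.07% without NC 1, 3.66% without NC 2 and 3.72% without NC 3, an alternative chosen after seeing the data. All 64 pairs kept separate libraries with 1 library left out, and 63 did with counts in place of FPKM. Counts are not divided by length, and with them the log2 ratio moved by more than its SD in 56 of 64 pairs, did not in 4, and turned in 4: CCNE1/CCNE2 from 0.38 to -0.59, TIMP1/TIMP3 from 0.58 to -0.74, TK1/TK2 from 0.71 to -0.94 and HDAC1/HDAC2 from 1.59 to -0.42. The number of present members moved by over 1.5 times in 5 of 43 lists at 2 FPKM, 5 with at least 10 counts and 1 with TPM, and in none at 0.5 FPKM. The number of present collagens was 11 at 2 FPKM and of present G protein coupled receptors 12. No paired analysis was possible because no test between groups was made. Below 1 FPKM, depth limits what can be said of a single gene.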
